A study of Mus musculus with 703 samples.

Results

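The 9 genes described here encode enzymes of the citric acid cycle: Cs, Idh3a, Idh3b, Ogdh, Dlst, Suclg1, Sucla2, Fh1 and Mdh2. They were taken by symbol from the deposited table of 19088 genes, which holds all 9. Their RNA was measured in gastrocnemius, a calf muscle used for movement, by RNA sequencing of mice, with 1 library per animal, in 20 strains of the kind called CC-RIX. Each is bred by crossing a chosen pair of recombinant inbred lines of the Collaborative Cross, whose genomes are mosaics of shared founders. Animals of 1 cross are thus alike in genotype but heterozygous. The 20 strains came from 19 lines, and the labels call every animal's genotype outbred.

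From the age of 6 weeks the mice were fed either 10% fat with fiber or 44% fat with fiber. The untreated animals comprised 236 females and 233 males, of whom 235 were on 44% fat. Metformin, a drug for type 2 diabetes, was put into the drinking water of the treated animals (5 mg/mL, begun at 7 months). On 10% fat, 57 treated animals were female and 59 male, and on 44% fat 59 were of each sex. Muscle was collected at 6 months in a younger cohort and at 12 months in an older one. Ages are absent from the labels. The drug began after the younger cohort was sampled, so metformin and age cannot be told apart in the comparison of treated with untreated animals. Untreated animals may be of either cohort, and age was not a term in any test. Its part in the strain, sex and diet differences was not tested.

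The citric acid cycle runs in the mitochondrial matrix. It oxidises acetyl groups from carbohydrate, fat and amino acids to carbon dioxide and passes the electrons to the respiratory chain. Muscle has a large and changeable demand for this, and the activity of citrate synthase, the product of Cs, is a common measure of how much mitochondrial machinery a muscle holds. The products of Idh3a and Idh3b are subunits of the NAD-dependent isocitrate dehydrogenase, with Idh3a the catalytic subunit. Ogdh and Dlst encode components of the 2-oxoglutarate dehydrogenase complex. Suclg1 and Sucla2 encode subunits of succinyl-CoA ligase, of which Sucla2 makes the enzyme specific for ADP. Fh1 encodes fumarase, and Mdh2 the mitochondrial malate dehydrogenase that closes the cycle.

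The genes lie on 9 different chromosomes, so no pair is linked. In the deposited annotation, whose positions are those of GRCm38, Cs is at chr10:128337832-128362479, Idh3a at chr9:54586511-54604661, Idh3b at chr2:130279309-130284547 and Ogdh at chr11:6291633-6356642. Dlst is at chr12:85110833-85134091, Suclg1 at chr6:73248382-73276911, Sucla2 at chr14:73525319-73596142, Fh1 at chr1:175600374-175625635 and Mdh2 at chr5:135778480-135790398. None of the stretches of 100 bases in their transcripts occurs in a transcript of another gene (0 shared for each of the 9), so near-identical copies do not divide their reads. In the GENCODE M21 annotation Idh3b overlaps Nop56 and Fh1 overlaps Kmo on the opposite strand, and reads were aligned without a stated use of strand.

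Promoter windows from RefSeq (GRCm38.p6, 250 bases before to 50 after a start site) were found for 8 of the 9 genes, namely all but Idh3a. There were 13 windows, since several start sites are listed for Ogdh. The 250 bases before a start site are shown for 3 of them: Cs, the enzyme through which acetyl groups enter, Ogdh, which differed from the other genes in several comparisons, and Fh1, with the largest difference between treated and untreated animals. Capitals mark matches, on either strand, to the motifs named after them.
Cs, chr10:128337477-128337726, plus strand: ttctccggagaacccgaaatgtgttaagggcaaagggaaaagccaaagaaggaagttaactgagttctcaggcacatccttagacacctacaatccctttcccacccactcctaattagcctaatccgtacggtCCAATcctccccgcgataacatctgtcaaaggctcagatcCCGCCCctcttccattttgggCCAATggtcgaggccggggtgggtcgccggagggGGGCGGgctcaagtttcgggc
Ogdh, chr11:6291347-6291596, plus strand: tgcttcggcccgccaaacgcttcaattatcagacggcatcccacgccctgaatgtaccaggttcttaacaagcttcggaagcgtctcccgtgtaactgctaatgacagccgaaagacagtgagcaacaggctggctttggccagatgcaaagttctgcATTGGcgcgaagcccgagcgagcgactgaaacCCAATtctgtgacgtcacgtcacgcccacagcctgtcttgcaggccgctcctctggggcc
Fh1, chr1:175625636-175625885, minus strand: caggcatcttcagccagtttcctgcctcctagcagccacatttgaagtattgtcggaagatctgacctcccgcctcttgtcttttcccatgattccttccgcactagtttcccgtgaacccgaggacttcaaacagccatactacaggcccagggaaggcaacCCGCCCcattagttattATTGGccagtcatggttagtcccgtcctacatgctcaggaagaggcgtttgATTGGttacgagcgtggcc

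The motif CCAAT, searched like the others on both strands, occurred in 9 of the 13 windows and in 37.4% of all 32851 windows of the same length. These 9 belong to 4 of the 8 genes, Cs, Fh1, Idh3b and Ogdh. The GC box GGGCGG occurred in 9 of the 13 windows, from 6 genes, and in 35.7% of all windows. Windows of Ogdh overlap each other, so they are not separate counts. Of the motifs of factors known for mitochondrial genes, the NRF1 motif GCGCATGCG was found in 2 windows, of Ogdh alone (1.75% of all windows). The ETS motif CCGGAAGTG was found in the window of Dlst alone (2.03% of all windows). The ERR motif TCAAGGTCA (0.423% of all windows) and the YY1 motif AAGATGGCG (1.4%) were in 0 of the 8, and its shorter form AAGGTCA, which the ERR motif contains, was in a window of Ogdh (4.72% of all). TATAAA was in 0 of the 8 and in 13.6% of all windows. No single motif of those searched was thus shared by all 8 genes.

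Total counts per library ran from 27368536 to 96100529 with a median of 47876086. Expression is given as CPM, a count scaled to a library of common size, here after TMM scaling between libraries. The 8 skeletal muscle markers, such as Ckm and Acta1, summed to between 105128 and 191678 CPM in every library, and none of them was at 0 in most animals. Of the libraries, 14 went against their sex label in the level of a sex-linked transcript, and 4 were closest to another strain. A far larger number had hepatocyte markers at over 10 times the median library. That group made up most of the libraries doubted on any of these grounds. The tests were repeated without all of these doubted libraries, 75 of them untreated, which left 589 (394 untreated and 195 treated). The later test of metformin by identifier range was not repeated in this way. Strain means, ratios, variance shares, within-strain differences and correlations include the doubted libraries. The libraries carry sequencing identifiers in a lower range (544 libraries, 400 of them untreated) and an upper range (159). The range was used as a stand-in for batch, though the labels do not say what it marks. The upper range holds 69 untreated and 90 treated libraries.

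Ogdh had the highest count, 818 ± 61.3 CPM (SD over all libraries), followed by Cs (578 ± 52.996), Mdh2 (423 ± 47.7), Idh3a (388 ± 40.2), Sucla2 (269 ± 28.3), Idh3b (225 ± 24.3), Dlst (189 ± 19.1), Suclg1 (145 ± 16.7) and Fh1 (128 ± 13.9). Per kilobase of annotated exon, a rough correction for gene length, the order was Ogdh (150.0 CPM per kb), Mdh2 (118.7), Cs (99.96), Idh3a (76.5), Sucla2 (67.5), Idh3b (65.8), Fh1 (37.8), Suclg1 (31.3) and Dlst (19.8). The exon length of each gene counts every annotated exon of all its transcripts, so this order is approximate. That of Dlst is the longest of the 9, at 9.56 kb. Within an enzyme, the ratio of Idh3a to Idh3b was 1.72 ± 0.17 in untreated animals (CPM over CPM, SD), that of Ogdh to Dlst 4.32 ± 0.39, and that of Suclg1 to Sucla2 0.542 ± 0.055. Between animals of the same strain, sex, diet and identifier range, the residual SD of the genes was 0.094 to 0.13 on the log2 scale. The median over all genes tested, whatever their level, was 0.287. No median was taken over genes with counts like those of the 9, so the part of expression level in this contrast was not tested.

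All 9 genes were higher on 44% than on 10% fat in untreated animals, by 2.11% for Idh3a to 5.16% for Idh3b. The differences were small beside the spread between animals. Ogdh ran from 659 to 985 CPM (median 801) on 10% fat and from 524 to 1004 CPM (median 844) in the 235 animals on 44% fat. These ranges overlapped almost throughout, yet 80.9% of the animals on 44% fat lay above the median of those on 10% fat, the largest share of the 9. Idh3b ran from 162 to 281 CPM (median 224) on 10% fat and from 164 to 369 CPM (median 232) on 44% fat. Cs ran from 450 to 728 CPM (median 573) and from 447 to 799 CPM (median 591) in the same groups. For the 8 genes other than Ogdh, between 60% and 69.4% of animals on 44% fat lay above the median on 10% fat.

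In edgeR's quasi-likelihood test with Benjamini-Hochberg adjustment over 16384 genes, all 9 were called as higher (adjusted p under 0.05). Over all genes tested 20.3% were called, 10.1% as higher and 10.1% as lower. The difference on the log2 scale was 0.070 ± 0.0089 for Ogdh (SE, adjusted p = 3.54e-12), which took the lowest p of the 9. It was 0.068 ± 0.010 for Dlst, the other component of its complex (adjusted p = 3.36e-09). For isocitrate dehydrogenase it was 0.073 ± 0.012 for Idh3b (adjusted p = 7.66e-08) but 0.030 ± 0.010 for the catalytic subunit Idh3a (adjusted p = 0.0252), the smallest of the 9. The succinyl-CoA ligase genes were close to each other, at 0.069 ± 0.012 for Suclg1 (adjusted p = 3.79e-07) and 0.059 ± 0.0098 for Sucla2 (adjusted p = 1.44e-07). Fh1 differed by 0.067 ± 0.011 (adjusted p = 3.71e-07), Mdh2 by 0.054 ± 0.012 (adjusted p = 1.43e-04) and Cs by 0.045 ± 0.0084 (adjusted p = 3.68e-06). The median of the 9 was 0.067, and the median of all genes tested was -0.0030.

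**Figure D1:**
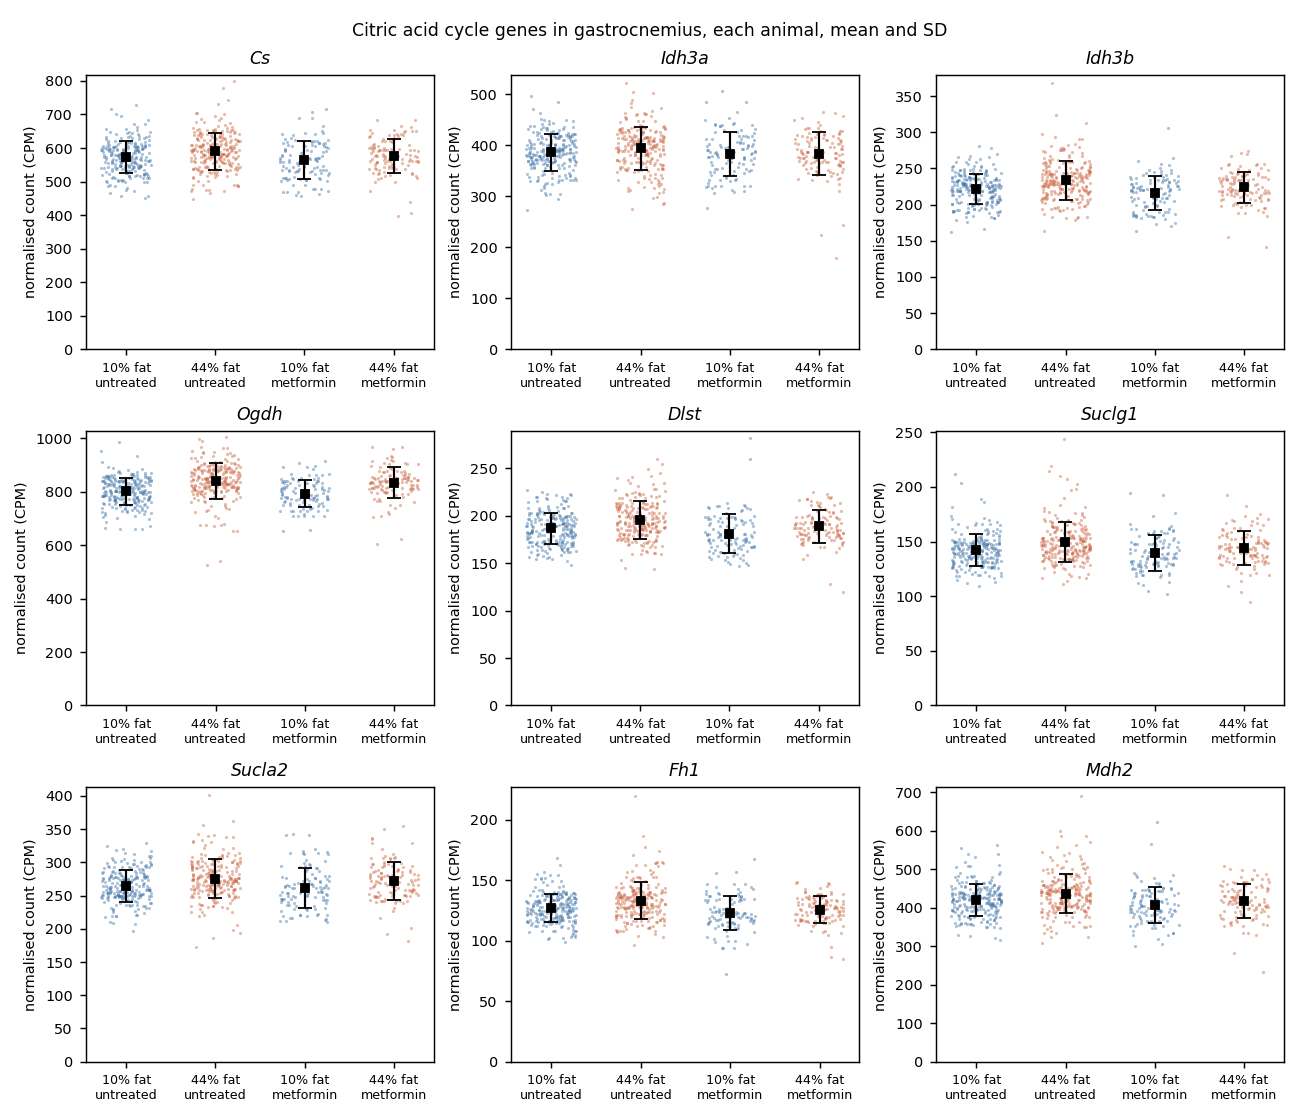
Normalised count (CPM, axes from 0) of each of the 9 genes in every animal by diet and treatment, with points for animals and black squares with bars for the mean and SD. The groups overlap in every gene, and the shift between diets is clearest for Ogdh, whose untreated means are 801 CPM on 10% fat and 841 CPM on 44% fat.

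Within the lower identifier range all 9 genes passed the test again, with differences of 0.038 (Idh3a) to 0.074 (Suclg1). Within the upper range, with 69 untreated animals, all 9 were higher by 0.0027 (Idh3a) to 0.097 (Ogdh), and 0 passed after adjustment. Without the doubted libraries all 9 passed, with differences of 0.031 to 0.072. In bulk tissue, fewer cells of a type and less RNA per cell cannot be told apart. The slow fibre markers, genes of oxidative slow-twitch fibres such as Myh7, summed to a median of 1897 CPM (620 to 3940) on 10% fat and 1877 CPM (534 to 4582) on 44% fat in untreated animals, and 3 of 8 were called higher, Myl2, Tnni1 and Atp2a2. The fast fibre markers summed to medians of 83105 (61458 to 102355) and 82108 (33357 to 105717) CPM, the adipocyte markers to 199 (74.9 to 925) and 205 (71.7 to 1215) CPM, and the endothelial markers to 145 (85.4 to 185) and 150 (91.8 to 191) CPM. None of these markers was at 0 in most animals of a group. Of the fast fibre markers Myh2 was called higher (0.14, log2), and Pvalb (-0.070) and Actn3 (-0.044) were called lower, of 6. Of the 8 skeletal muscle markers the gene of the oxygen store myoglobin, Mb, was called higher (0.21) and 0 were called lower. Of the adipocyte markers 5 of 8 were called higher and 2 lower, and of the endothelial markers 2 of 5 were called higher. The part of these cells and fibre types in the differences was not tested.

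Among the animals given metformin, which the first test did not use, the 9 genes were again all higher on 44% fat, and 4 of them were called. Over all 16418 genes tested there, 12.1% were called, 5.27% as higher and 6.79% as lower. Ogdh was higher by 0.072 ± 0.012 (log2, SE, adjusted p = 7.61e-07), Sucla2 by 0.060 ± 0.015 (adjusted p = 0.00284), Dlst by 0.061 ± 0.017 (adjusted p = 0.00545) and Idh3b by 0.052 ± 0.017 (adjusted p = 0.0247). Ogdh ran from 654 to 913 CPM (median 787) in treated animals on 10% fat and from 605 to 967 CPM (median 836) in those on 44% fat. The values of the 5 genes not called were 0.046 for Suclg1 (adjusted p = 0.0583), 0.038 for Fh1 (adjusted p = 0.164), 0.034 for Cs (adjusted p = 0.105), 0.034 for Mdh2 (adjusted p = 0.248) and 0.0050 for Idh3a (adjusted p = 0.908). The edgeR test of whether the diet difference depended on metformin called 0 of the 9, with differences between the diet effects of -0.028 (Fh1) to 0.0043 (Ogdh), and it called 0.0902% of all genes. The diet difference was thus not shown to differ between treated and untreated animals. Within each identifier range fewer animals entered the fit. There 2 genes (Ogdh and Dlst) were called in the 144 treated animals of the lower range and 1 (Ogdh) in the 90 of the upper range. Whether the diet difference depended on the range was not tested. Without the doubted libraries Idh3b, at 0.052, had an adjusted p of 0.0539.

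**Figure D2:**
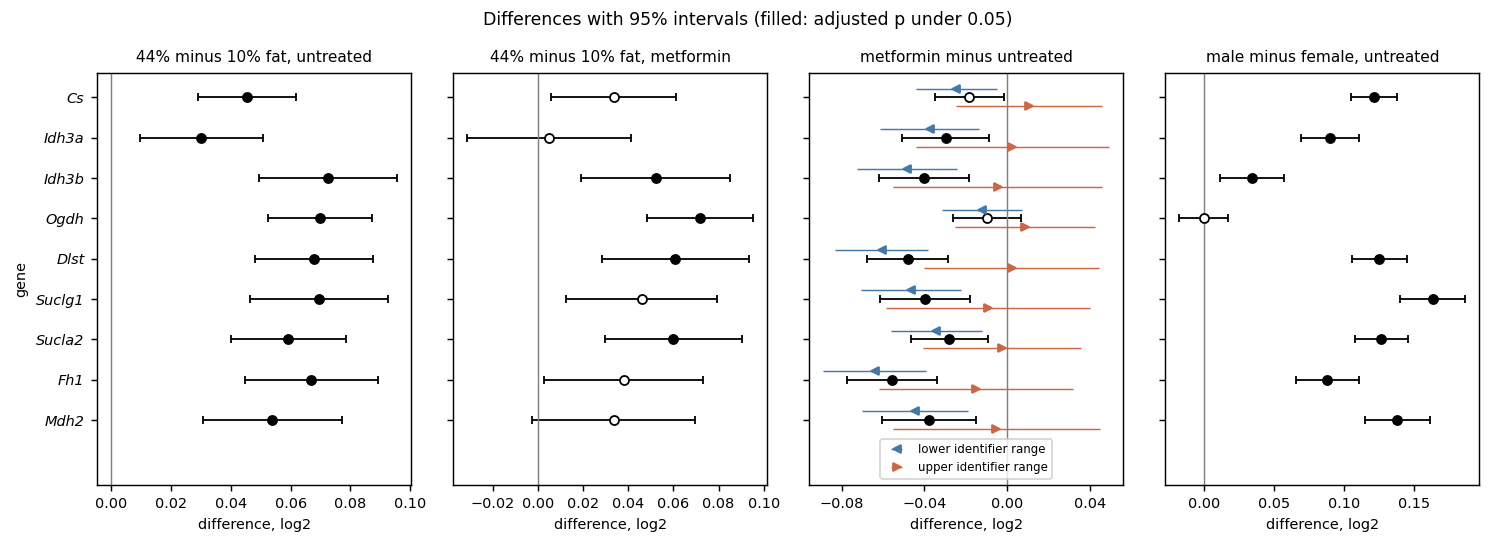
Difference in log2 units for each gene in 4 comparisons, with 95% intervals and filled points where the adjusted p is under 0.05. In the comparison of treated with untreated animals, blue triangles give the lower identifier range alone and orange triangles the upper range alone, where 0 of 9 genes were called. The horizontal axes differ between panels.

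In animals given metformin most of the genes were lower than in untreated animals of the same strain, sex and diet. Of the 9 genes, 7 were called as lower and 0 as higher, while 11% of the 17740 genes tested were called as lower and 8.34% as higher, 19.4% in all. Fh1 ran from 72.7 to 167 CPM (median 122) in treated animals on 10% fat, against 98.99 to 168 CPM (median 127) in untreated animals on that diet. On 44% fat it ran from 84.7 to 149 CPM (median 127) with metformin and from 96.7 to 220 CPM (median 132) without. The treated animals were thus lower in the median on each diet, with broad overlap. Over all animals, 34.2% of the treated lay above the untreated median of Fh1, the lowest share of the 9, and 44.4% did for Ogdh, the highest.

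In the edgeR test Fh1 fell by 0.056 ± 0.011 on the log2 scale (SE, adjusted p = 3.73e-05), which is -3.79%. Dlst fell by 0.048 ± 0.010 (adjusted p = 7.86e-05), while Ogdh, whose product works in the same complex, had a difference of -0.0099 ± 0.0084 (adjusted p = 0.433). Idh3b fell by 0.040 ± 0.011 (adjusted p = 0.00385) and Idh3a fell by 0.030 ± 0.011 (adjusted p = 0.0347). Suclg1 fell by 0.040 ± 0.011 (adjusted p = 0.00445) and Sucla2 fell by 0.028 ± 0.0096 (adjusted p = 0.0253). Mdh2 fell by 0.038 ± 0.012 (adjusted p = 0.0111). Cs, with -0.018 ± 0.0085, did not pass (adjusted p = 0.115), and its 95% interval reached from -0.035 to -0.0016. The median of the 9 was -0.038, and that of all genes tested was -0.0022.

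The number of genes called differed between the identifier ranges, which also differ in their number of animals. In the 544 animals of the lower range 7 genes were called, with differences from -0.064 for Fh1 and -0.061 for Dlst to -0.012 for Ogdh. In the 159 animals of the upper range 0 of 9 were called, and the differences lay between -0.015 ± 0.024 for Fh1 (SE) and 0.010 ± 0.018 for Cs. A direct test of the difference between the ranges, chosen after these values were seen, called 0 of the 9 and 1.71% of all genes. Its estimates (upper minus lower range) were all above 0, from 0.014 ± 0.019 for Ogdh to 0.054 ± 0.022 for Dlst (edgeR, adjusted p = 0.813 and 0.226). Range and strain overlap here: of 90 treated libraries in the upper range, 59 came from 5 strains that have no treated library in the lower range. The overlap is partial, since 7 strains have treated libraries in both ranges. Age cannot be told apart from metformin, and the parts of the range and of strain were not tested separately. Slow fibre markers had medians of 1749 CPM (688 to 3545) with metformin and 1897 CPM (620 to 3940) without on 10% fat, and 1925 CPM (646 to 4410) and 1877 CPM (534 to 4582) on 44% fat, with 0 of 8 called. The adipocyte markers had medians of 174 CPM (90.5 to 1710) with metformin and 199 CPM (74.9 to 925) without on 10% fat, and 184 CPM (95.8 to 516) and 205 CPM (71.7 to 1215) on 44% fat, with 3 of 8 called lower, among them Lep. Of the 6 fast fibre markers Mybpc2 and Myh4 were called higher and Myh1 lower, and of the skeletal muscle markers Mb was called lower (-0.092, log2). Their part was not tested.

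Males had more RNA than females for 8 of the 9 genes, and the estimates were larger than those between diets for 7 of them, the exception being Idh3b. Suclg1 ran from 109.3 to 169 CPM (median 138) in 236 untreated females and from 116.9 to 244 CPM (median 151) in 233 males, and 87.6% of males lay above the female median. Cs ran from 447 to 658 CPM (median 559) in females and from 472 to 799 CPM (median 602) in males. Ogdh, in contrast, ran from 659 to 1004 CPM (median 824) in females and from 524 to 998 CPM (median 823) in males, with nearly equal medians. In the edgeR test Suclg1 was higher in males by 0.16 ± 0.012 (log2, adjusted p = 2.64e-35), Mdh2 by 0.14 ± 0.012 (adjusted p = 2.50e-26), Sucla2 by 0.13 ± 0.0098 (adjusted p = 9.05e-32), Dlst by 0.13 ± 0.010 (adjusted p = 8.22e-30) and Cs by 0.12 ± 0.0084 (adjusted p = 7.23e-38). Idh3a was higher by 0.090, Fh1 by 0.088 and Idh3b by 0.034 (adjusted p = 0.00655). Ogdh differed by -0.00046 ± 0.0089 (adjusted p = 0.966), with a 95% interval from -0.018 to 0.017. With genes under a mean of 5 CPM left out before scaling, all these estimates were lower by about the same amount, so that Idh3b was no longer called (0.0099, adjusted p = 0.388) and Ogdh was called as lower in males (-0.024, adjusted p = 0.00631). The ratio of Ogdh to Dlst was accordingly 4.51 ± 0.32 in females and 4.14 ± 0.38 in males (SD).

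Over all genes tested, 67.1% were called between the sexes, 30.1% as higher in males and 37% as lower. The slow fibre markers were lower in males, 8 of 8 called, with a summed median of 1515 CPM (534 to 2743) against 2296 CPM (1274 to 4582) in females. All 6 fast fibre markers were called, Pvalb, Actn3 and Myh4 as higher in males and Myh2, Mybpc2 and Myh1 as lower. The skeletal muscle markers were higher in males for 6 of 8 and lower for 1, Atp2a1, with medians of 151198 and 143693 CPM. Of the adipocyte markers, 7 of 8 were called lower in males and 1, Lep, higher. Their part in the sex differences of the 9 genes was not tested. The interaction of diet with sex was called for 0 of the 9 genes and for 0.568% of all genes. Its estimates, the diet difference in males minus that in females, were all above 0, from 0.0091 ± 0.017 for Cs to 0.074 ± 0.023 for Idh3b (adjusted p = 0.9375 and 0.1215), and the 95% interval for Idh3b was 0.028 to 0.12. The interaction of metformin with sex was called for 0 of the 9 and for 3.12% of all genes.

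The strains differed in all 9 genes, as they did in 95.4% of the genes tested, and the differences between the extreme strain means were modest. The highest strain mean was 1.13 times the lowest for Suclg1, 1.14 times for Mdh2 and Ogdh, and up to 1.26 times for Idh3a. Strain accounted for 27.97% of the variance of Idh3a in untreated animals, 24.7% of that of Idh3b, 23.3% for Cs, 23.2% for Sucla2, 21.01% for Fh1, 15.03% for Ogdh, 12.8% for Dlst, 7.13% for Mdh2 and 6.32% for Suclg1, with a median of 15.4% over all genes tested. Sex accounted for up to 25.1% (Suclg1), with a median over all genes of 1.58%. Diet accounted for 0.75% (Idh3a) to 8.59% (Ogdh), with a median over all genes of 0.073%. When the 20 strains were ordered by their mean, no neighbouring pair differed by more than its pooled SD in any of the 9 genes (0 of 19 pairs in each).

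Idh3a was lowest in (CC001/UncJ x CC042/GeniUncJ)F1, at 332 ± 37.8 CPM (SD, n = 24), and highest in (CC012/GeniUncJ x CC002/UncJ)F1, at 420 ± 24.98 CPM (n = 24). The gap between (CC001/UncJ x CC042/GeniUncJ)F1 and the strain ranked just above it, (CC043/GeniUncJ x CC042/GeniUncJ)F1 with 363 CPM, was 0.896 of the pooled SD, the largest gap between neighbours for any of the genes. Idh3b, the partner subunit, was lowest in (CC012/GeniUncJ x CC002/UncJ)F1, the strain with the most Idh3a, at 202 ± 12.0 CPM, and highest in (CC043/GeniUncJ x CC011/UncJ)F1, at 248 ± 16.3 CPM. The ratio of Idh3a to Idh3b therefore reached 2.08 ± 0.10 in (CC012/GeniUncJ x CC002/UncJ)F1 (lowest animal 1.84) and was 1.57 ± 0.12 in (CC001/UncJ x CC042/GeniUncJ)F1 (highest animal 1.78). The ratios of these strains did not overlap. The strain with the ratio just below the highest was (CC004/TauUncJ x CC019/TauUncJ)F1, at 1.83 ± 0.14.

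Cs was highest in (CC043/GeniUncJ x CC011/UncJ)F1, at 649 ± 59.6 CPM, and lowest in (CC030/GeniUncJ x CC002/UncJ)F1, at 540 ± 40.4 CPM. Fh1 was lowest in that same strain, at 118.1 ± 8.5 CPM, and highest in (CC051/TauUncJ x CC060/UncJ)F1, at 143 ± 15.7 CPM. Sucla2 ran from 246 ± 23.6 CPM in (CC051/TauUncJ x CC019/TauUncJ)F1 to 296 ± 30.4 CPM in (CC075/UncJ x CC042/GeniUncJ)F1. The remaining extremes were closer together. Ogdh ran from 758 ± 68.1 CPM in (CC019/TauUncJ x CC042/GeniUncJ)F1 to 866 ± 65.4 CPM in (CC002/UncJ x CC043/GeniUncJ)F1. Dlst, Suclg1 and Mdh2 were all highest in (CC042/GeniUncJ x CC040/TauUncJ)F1, at 210 ± 21.9, 156 ± 23.4 and 463 ± 55.8 CPM.

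**Figure D3:**
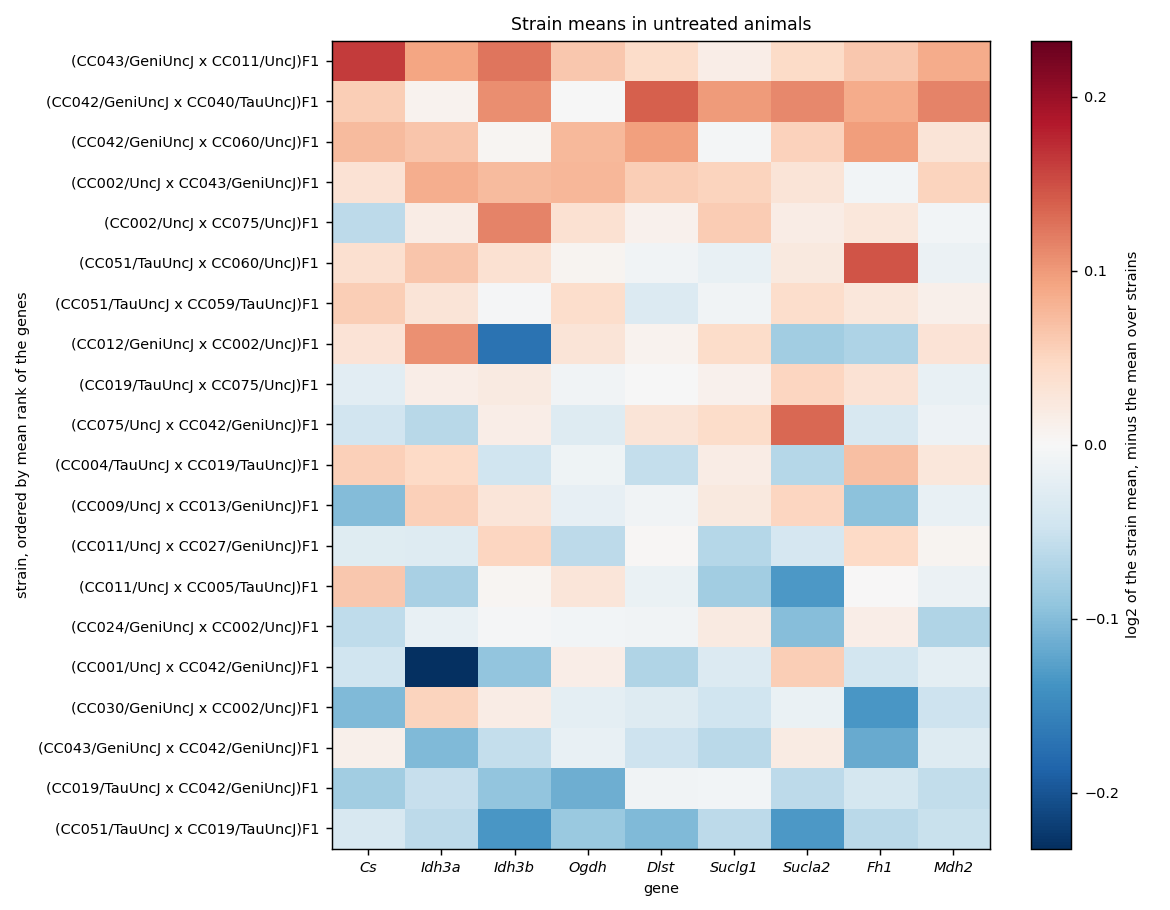
Mean of each gene in each of the 20 strains (untreated animals), as log2 of the strain mean minus the average over strains, with red above and blue below it. Strains are ordered by the mean rank of the 9 genes. The darkest blue cell is Idh3a in (CC001/UncJ x CC042/GeniUncJ)F1, and (CC012/GeniUncJ x CC002/UncJ)F1 is red for Idh3a and blue for Idh3b.

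A few strains were high or low in most of the genes. (CC043/GeniUncJ x CC011/UncJ)F1, (CC042/GeniUncJ x CC040/TauUncJ)F1 and (CC042/GeniUncJ x CC060/UncJ)F1 were each among the 5 highest strains in 7 of the 9 genes, and among the 5 lowest in 0. (CC051/TauUncJ x CC019/TauUncJ)F1 was among the 5 lowest in 8 genes and never ranked above 13. The line CC042/GeniUncJ is a parent of strains at both ends, since (CC019/TauUncJ x CC042/GeniUncJ)F1 and (CC043/GeniUncJ x CC042/GeniUncJ)F1 had mean ranks of 16 and 15.6 of 20. The slow fibre markers summed to a median of 3009 CPM in (CC042/GeniUncJ x CC060/UncJ)F1 and 1723 CPM in (CC043/GeniUncJ x CC011/UncJ)F1, which were both high in the 9 genes, and to 1795 CPM in the low (CC051/TauUncJ x CC019/TauUncJ)F1.

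Within strains, the diet difference had the same sign in most. Suclg1 and Idh3b were higher on 44% fat in 20 of 20 strains, Cs in 19, Ogdh, Dlst and Sucla2 in 18, Fh1 in 17, Mdh2 in 16 and Idh3a in 15. With 12 animals per diet in most strains, few of these differences exceeded 2 standard errors: 11 of 20 for Ogdh, 8 for Dlst, 6 for Idh3b, 5 for Suclg1, Sucla2 and Fh1, 2 for Cs and Mdh2 and 0 for Idh3a. In 0 of 20 strains was any of the 9 lower on 44% fat by more than 2 standard errors. The largest difference was that of Idh3b in (CC019/TauUncJ x CC042/GeniUncJ)F1, 0.21 ± 0.064 (log2, SE), from 162 to 251 CPM (median 198) in 12 animals on 10% fat to 179 to 290 CPM (median 222) in 12 on 44% fat. In (CC042/GeniUncJ x CC060/UncJ)F1, Fh1 ran from 120 to 141 CPM (median 134) in 11 animals on 10% fat and from 134 to 165 CPM (median 144) in 11 on 44% fat. In that strain 7 of the 9 differences exceeded 2 standard errors, and in (CC051/TauUncJ x CC019/TauUncJ)F1 0 did, with 4 of the 9 higher on 44% fat. The edgeR test of whether the diet difference varied with strain called 0 of the 9 genes, with the lowest adjusted p for Fh1 (0.577), and it called 4.13% of all genes. No strain was thus shown to respond differently.

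The difference between treated and untreated animals varied more in sign. Fh1 and Idh3b were lower with metformin in 17 of 20 strains, Ogdh in 12. In (CC043/GeniUncJ x CC011/UncJ)F1 all 9 genes were lower by more than 2 standard errors, with a median of -0.12, and in (CC042/GeniUncJ x CC040/TauUncJ)F1 8 of 9 were. In (CC019/TauUncJ x CC042/GeniUncJ)F1 all 9 were higher, with a median of 0.055, and 0 by more than 2 standard errors. The edgeR test of whether the difference varied with strain called Ogdh alone of the 9 (adjusted p = 0.00187), against 11.6% of all genes. Ogdh ran from 738 to 998 CPM (median 852) in 24 untreated and from 657 to 848 CPM (median 799.7) in 12 treated animals of (CC043/GeniUncJ x CC011/UncJ)F1. In (CC019/TauUncJ x CC042/GeniUncJ)F1 it ran from 542 to 857 CPM (median 771) in 24 untreated and from 727 to 893 CPM (median 834) in 12 treated animals. Its within-strain differences ran from -0.11 ± 0.039 in the former to 0.11 ± 0.054 in the latter. These strains were also the ones with high and low untreated levels, and both the ranks and the differences rest on the same untreated animals. The treated animals of (CC019/TauUncJ x CC042/GeniUncJ)F1 are all in the upper identifier range and those of (CC043/GeniUncJ x CC011/UncJ)F1 all in the lower. In the lower range alone the test of Ogdh gave an adjusted p of 0.0530 by edgeR.

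**Figure D4:**
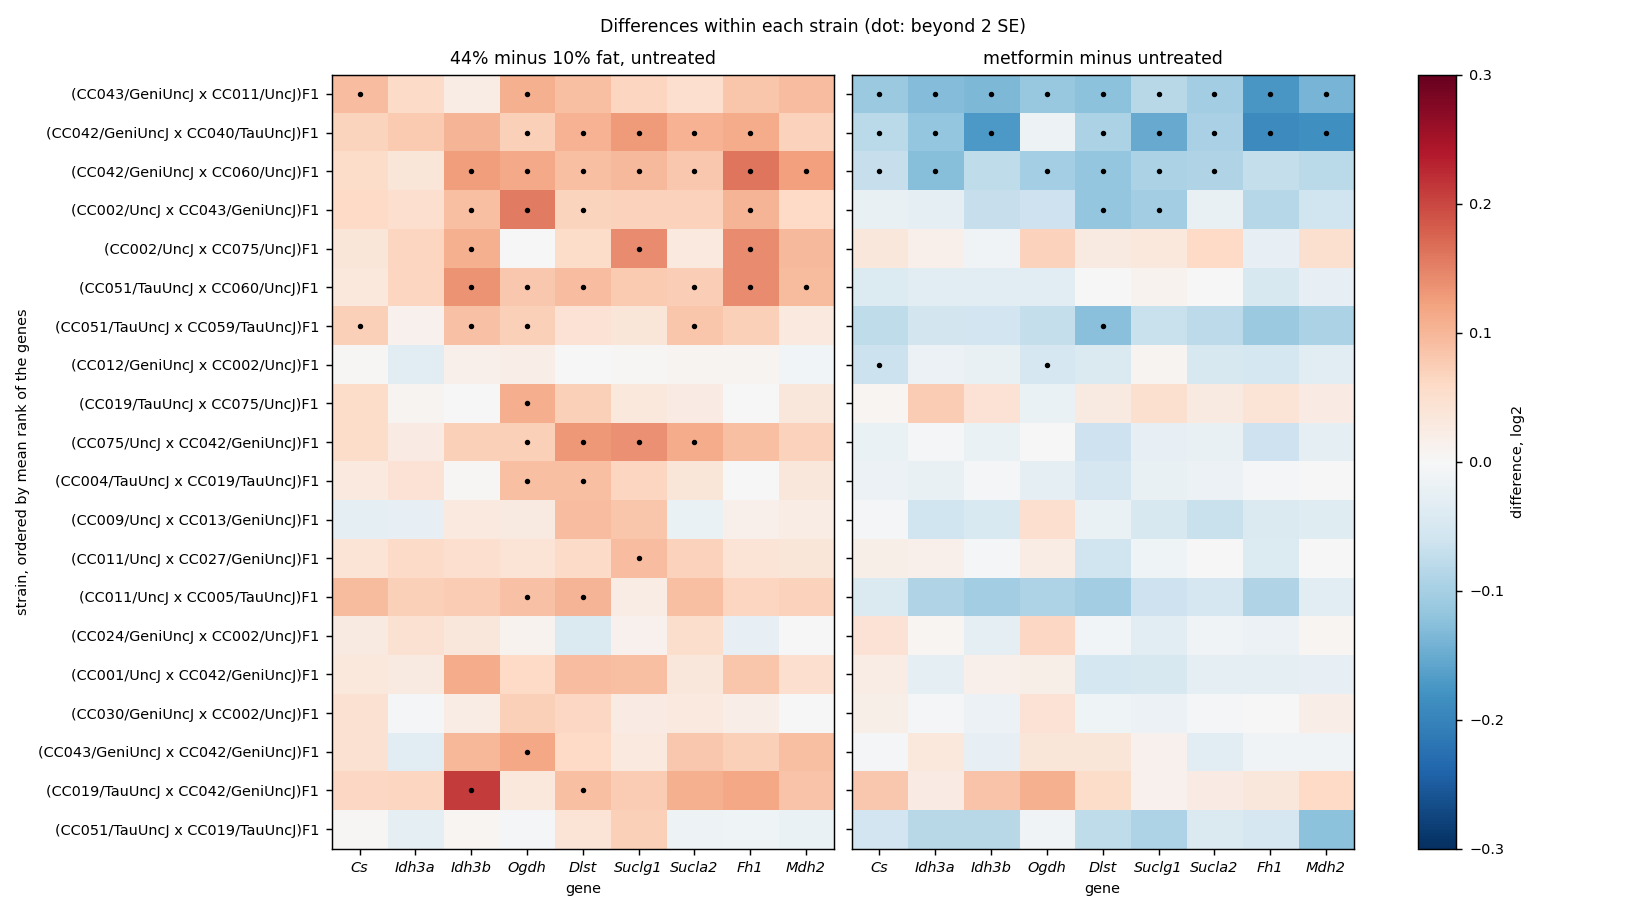
Difference within each strain in log2 units, 44% minus 10% fat in untreated animals (left) and metformin minus untreated (right), with a dot where it exceeds 2 standard errors. Strains have the same order as in the plot of strain means. The left panel is red in nearly every cell and the right panel mixes signs, with dots mainly in the 3 top strains, whose untreated animals also set the order.

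The 9 genes rose and fell together between animals. After strain, sex, diet and identifier range were taken out, all 36 pairs were positively correlated over the untreated animals, with Pearson r from 0.10 to 0.82 and a median of 0.63 (median Spearman rho 0.66). Mdh2 and Idh3b were the most alike pair (r = 0.82) and Suclg1 and Ogdh the least (r = 0.10). By Pearson r Ogdh stood apart: its r with the mean of the other 8 was 0.40, against 0.75 to 0.85 for each other gene. By Spearman rho the pairs of Ogdh ran from 0.25 (Suclg1) to 0.56 (Cs), so the lowest was above its Pearson r of 0.10. The doubted libraries were included in these values. Over the 20 strain means all 36 pairs were positive too, with a median r of 0.51, and Ogdh (r = 0.61 with the other 8) was within the range of the other genes (0.51 to 0.85). These correlations describe the data. The animals' values share library depth, RNA quality and tissue makeup, and the strain means rest on few points.

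**Figure D5:**
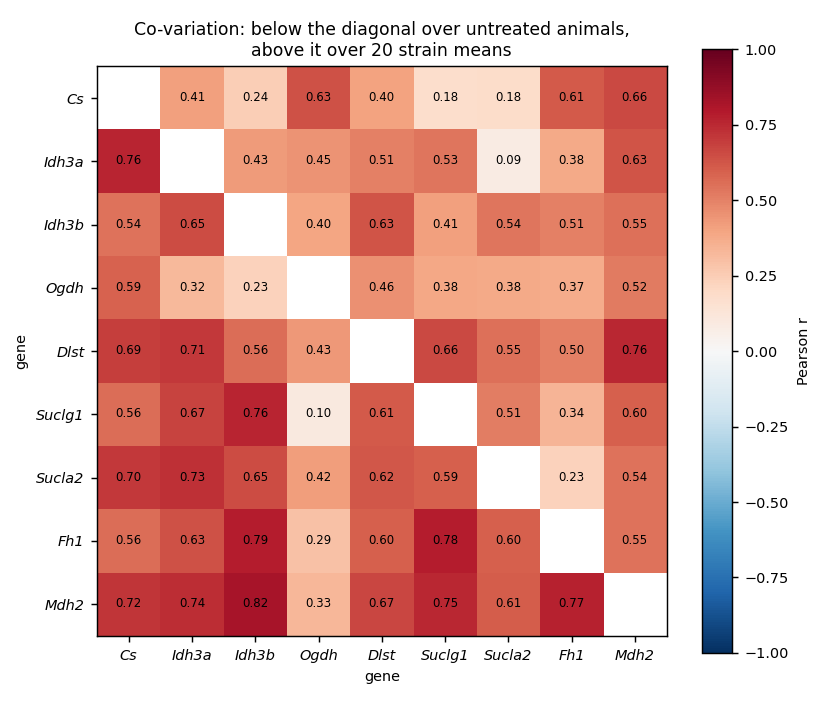
Pearson r between the 9 genes, below the diagonal over untreated animals after strain, sex, diet and identifier range were taken out, and above it over 20 strain means. The row and column of Ogdh are the palest below the diagonal, with r from 0.10 (Suclg1) to 0.59 (Cs).

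The genes whose levels most resembled the mean of the 9 over the untreated animals encode subunits of the respiratory chain and ATP synthase: Atp5b (r = 0.91), Atp5a1 (0.90), Uqcrc1 (0.86), Atp5f1 (0.86) and Ndufv1 (0.86), of 10704 genes compared with a median r of 0.067. Over the 20 strain means they were Ndufa10 (r = 0.90), Ndufa9 (0.89), Dld (0.83), Ndufs1 (0.82) and Uqcrfs1 (0.76), with a median r of 0.011. Dld encodes a component shared by the 2-oxoglutarate and pyruvate dehydrogenase complexes. The mean of the slow fibre markers had an r of 0.23 with the 9 genes over animals and 0.14 over strains, and that of the fast fibre markers 0.39 and 0.32.

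The other genes of the cycle moved with the 9 in the diet comparison. Of 10 such genes 8 were called higher on 44% fat in untreated animals and 0 lower, with a median of 0.060. Among these were Idh2, the NADP-dependent mitochondrial isocitrate dehydrogenase (0.12 ± 0.022, adjusted p = 2.39e-06), Sdhb (0.065), Idh3g (0.063), Sdhc (0.058), Dld (0.057), Sdhd (0.044) and Sdha (0.034). Suclg2, the GTP-specific partner of Suclg1, had 0.028 (adjusted p = 0.0759), and Ogdhl, a relative of Ogdh, 0.076 ± 0.048 (adjusted p = 0.282).

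In the comparison of treated with untreated animals 7 of these 10 genes were called lower and 1 higher. Among those that were lower, the succinate dehydrogenase genes Sdhb and Sdhd were at -0.092 (adjusted p = 5.70e-09) and -0.055, Dld at -0.051, Idh3g at -0.038, Suclg2 at -0.029 and Sdha at -0.029. Idh2 (-0.012) and Sdhc (-0.025) did not pass, and Ogdhl was higher by 0.20 ± 0.043 (adjusted p = 1.92e-04). Between the sexes 7 of the 10 were higher in males, led by Idh3g (0.20 ± 0.011, adjusted p = 9.95e-52), while Suclg2 was lower in males (-0.13 ± 0.012, adjusted p = 1.19e-24), as was Idh2 (-0.066). Suclg1 and Sucla2 were thus higher and Suclg2 lower in males, so the ADP- and GTP-specific partners of Suclg1 differed in opposite directions.

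The counts that follow stand beside 10.1% of all genes called in each direction for diet, 11% called lower and 8.34% higher with metformin, and 30.1% called higher and 37% lower in males. Of the 14 genes of pyruvate entry, 6 were called higher on 44% fat and 1 lower. Pdk4, the kinase that switches pyruvate dehydrogenase off, rose most (0.32 ± 0.091, adjusted p = 0.00448), and Pcx, pyruvate carboxylase, fell by 0.25 ± 0.036 (adjusted p = 1.64e-09). With metformin 6 of the 14 were lower and 0 higher, and Mpc1, a subunit of the mitochondrial pyruvate carrier, had the largest difference of those called (-0.087, adjusted p = 5.70e-09). Of the cytosolic counterparts, where 5 of 6 listed genes were measured, Mdh1 rose on 44% fat (0.10 ± 0.013, adjusted p = 2.47e-11) while Acly, which turns citrate exported from mitochondria into acetyl-CoA for lipid synthesis, fell by 1.06 ± 0.087 (adjusted p = 3.52e-27), as did Me1. Slc25a1, the carrier that exports citrate, fell by 0.79 ± 0.087 (adjusted p = 6.12e-16), and of the 11 genes of anaplerosis and shuttles 3 fell and 1 rose, Slc25a11. The fall of Slc25a1 depended on sex: the interaction, the diet difference in males minus that in females, was 0.76 ± 0.17 (edgeR, adjusted p = 0.006025), so that it fell less in males. Slc25a10, the dicarboxylate carrier, was called in that edgeR test too (0.51 ± 0.11, adjusted p = 0.006025). The test called 0.568% of all genes.

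With metformin 2 of the 5 cytosolic genes were lower, with Idh1 at -0.087, and 5 of the 11 genes of anaplerosis and shuttles, with Me2 at -0.12. Of 4 succinate dehydrogenase assembly genes only Sdhaf2 was called, higher on 44% fat (0.036, adjusted p = 0.0344) and lower with metformin (-0.035, adjusted p = 0.0203). Of 12 regulators of mitochondrial genes, 7 were called higher on 44% fat, with Ppargc1b at 0.12 (adjusted p = 0.00458), and 0 lower. Ppargc1a, the best known of them, had -0.069 ± 0.045 (adjusted p = 0.301). With metformin 5 of the 12 were called lower, with the nuclear receptor Ppara at -0.23 ± 0.037 (adjusted p = 8.76e-08). In males 8 of the 12 were higher than in females, led by Ppargc1a (0.24 ± 0.045, adjusted p = 7.05e-07), and 3 lower.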

How the data were processed

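RNA of gastrocnemius was sequenced from polyA-selected libraries (KAPA mRNA HyperPrep, 100 bp paired ends). The authors aligned reads to an 8-way founder transcriptome with EMASE within GBRS, treating both ends as single reads, and deposited estimated counts per gene, which are whole numbers, after dropping transcripts with under 1 read in many of the samples. They also deposited a variance-stabilised table on a log2-like scale made with DESeq2, which was used here only as an alternative. The genome build is GRCm38 per the submitters' processing notes. No column was left unused for want of a sample (0).

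Counts were tested in R 4.3.3 with edgeR 4.0.16 (TMM scaling, filterByExpr, quasi-likelihood fits) with strain, sex, diet, treatment and identifier range as terms, and p-values were adjusted by Benjamini-Hochberg over all genes tested, with a threshold of 0.05. Differences are 44% minus 10% fat, metformin minus untreated and male minus female. CPM are counts over TMM-scaled library size, and log2 CPM used a prior count of 2. Within-strain differences, correlations and variance shares used log2 CPM. The code was tested on simulated data. Alternatives were limma 3.58.1 (voom), DESeq2 1.42.0, other scalings and filters, no range term, each range alone and leaving out doubted libraries.

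Groups came from the labels, with 1 library per animal. No 2 libraries were identical. The text names all 9 members, the other cycle genes except for results not reported here, in each other list the called genes with the largest change each way, and the 5 most similar genes. A few others (Me1, Slc25a10, Slc25a11, Ppargc1a and the markers) were named after their values were seen. The members and lists were chosen with earlier results of these data known. Sequences are RefSeq's (GRCm38.p6), and gene models GENCODE M21.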

Additional observations from a re-analysis of the deposited data

Results flagged for a closer look

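The difference in Ogdh between animals given metformin and untreated animals varied between strains in the test of the interaction itself (edgeR, adjusted p = 0.001874, F = 2.79). The same test called 11.6% of all genes, so a call was not rare in it, and Ogdh alone of the genes described here was called. Ogdh was lower with metformin in 12 of 20 strains and higher in 8. With limma voom the adjusted p was 0.00723, without the doubted libraries 0.00184, and in the lower identifier range alone 0.0530. Strain and identifier range overlap in part among treated animals, and age cannot be told apart from treatment. Their parts in this result were not tested.

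The diet difference depended on sex in untreated animals for Slc25a1, the citrate carrier gene (edgeR interaction, male minus female, 0.76 ± 0.17, adjusted p = 0.006025), and for Slc25a10, the dicarboxylate carrier gene (0.51 ± 0.11, adjusted p = 0.006025). The same test called 0.568% of all genes. These 2 genes were picked from the lists after their values were seen, and their values under the alternatives are not reported here.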

How the results depend on the processing

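The diet difference in untreated animals stayed positive for all 9 genes under every alternative, 81 of 90 values keeping their side of the threshold and 9 losing it, all 9 in the upper identifier range alone. That range holds 69 untreated and 90 treated animals, so fewer animals entered each fit. In it, 0 of the 9 genes were called for diet in untreated animals (2.2% of all genes tested, against 20.3%), 0 for metformin (0.00566%, against 19.4%), 5 for sex (26.1%, against 67.1%), 2 for strain (55.1%, against 95.4%) and 1 for diet in treated animals (5.06%, against 12.1%). The metformin difference turned sign there for Cs (0.0104), Idh3a (0.00249), Ogdh (0.00868) and Dlst (0.0021), and the diet difference in treated animals for Idh3a (-0.00427). In the lower range alone, 2 genes were called for diet in treated animals (3.78% of all genes) and 0 for metformin by strain. There the metformin by diet term turned sign for Dlst (0.0129) and Mdh2 (0.00809), and the metformin by sex term for Idh3b (-0.00692) and Mdh2 (-0.0184). The cause of these changes was not tested.

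Shares of all genes called moved as follows. A filter at a mean of 5 CPM, which tested 8645 genes or fewer in place of 16384 or more, called 25.9% for metformin (2240 genes, against 3437), 74.1% for sex (6408, against 10998) and 98.7% for strain (8529, against 15626). limma voom called 0.641% for diet by strain (4.13% with edgeR), 0.317% for diet by sex (0.568%), 1.59% for metformin by sex (3.12%), 2.85% for metformin by strain (11.6%) and 0 genes for metformin by diet (16 with edgeR, with 1609 at an unadjusted p under 0.05). The lower range called 0.196% for diet by sex, 0.235% for metformin by diet and 1.78% for metformin by sex. Without the doubted libraries 2.35% were called for diet by strain, 0.275% for diet by sex and 0.00564% for metformin by diet, and 3 of the 9 genes were called for metformin by strain, Ogdh, Cs (adjusted p = 0.0284) and Mdh2 (0.0157). The test of metformin by identifier range was chosen after seeing the data. No paired analysis was made, since each library came from a separate animal and the labels name no pairs of animals.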
